A study of Mus musculus with 68 samples.

Results

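The transcripts of 7 genes that steer cells toward cartilage, bone or blood were followed in the pharyngeal arches of mouse embryos. The genes were chosen by name: Sox9, its partners Sox5 and Sox6, the runt factors Runx1, Runx2 and Runx3, and Cbfb, which encodes the runt factors' common partner. All 7 were found among the 21948 genes of the expression table. PA1 is the arch that forms the jaws, and PA2 is the next arch toward the tail. Both were dissected whole from CBA/Ca/J x C57BL/10 embryos labelled wildtype or Hoxa2-/-, at 4 stages from E9.0 through E9.5 and E10.0 up to E10.5, and no group carried any other named allele or treatment. The Hoxa2-/- label names the loss of both copies of Hoxa2, and how the allele was made is not given in the sources used here. In stage order there were 5, 5, 5 and 3 libraries of wildtype PA1, and 4, 4, 5 and 3 of wildtype PA2. Each arch of the Hoxa2-/- label had 4, 5, 5 and 3 libraries. These 68 libraries represent 35 embryos, and 33 embryos are represented by both of their arches.

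Sox9 is the transcription factor that switches on the cartilage program in condensing crest mesenchyme, and Sox5 and Sox6 help it to keep cartilage matrix genes active. Runx2 is required for bone, Runx1 for blood stem cells, and Runx3 for some sensory neurons and lymphocytes, while each binds DNA more tightly once paired with Cbfb. Hoxa2 is the Hox gene that gives PA2 its identity, and in the mouse its loss turns PA2 skeletal parts into copies of PA1 parts. Textbook accounts place Sox9 and Runx2 among the genes that Hoxa2 holds back in PA2.

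The 3 runt genes share a short sequence beside a start site, shown here because it is a recognition motif of the proteins that these genes encode. The RUNX core ACCACA, in capitals, occurs at 2 adjacent places separated by 2 bases in each of them. The stretches are from RefSeq on GRCm38.p6, are written 5′ to 3′ on the gene's strand, and lie at chr16:92826026-92826053 for Runx1, chr17:44814584-44814611 for Runx2 and chr4:135120504-135120531 for Runx3.
Runx1: ataaacaACCACAgaACCACAagttggg
Runx2: acaaacaACCACAgaACCACAagtgcgg
Runx3: tccctcaACCACAgaACCACAaggccag
Counting the start site as base 1, the first capital is base 29 in Runx1 and base 24 in Runx2, and it lies 134 bases upstream of the start site in Runx3. Among 32851 windows of 300 bases, each reaching from 250 bases before a start site to 50 after it, 16.8% held the core on either strand and 0.0213% held this spaced arrangement. The latter share is 7 windows, and 3 of them were those of the runt genes. Only the spacing found in the runt genes was counted, and no other. The second listed start sites of Runx1 and Runx3 and the start sites of Sox5 and Cbfb held no core, whereas 2 of the 6 start sites of Sox6 held one. A match describes letters and not a bound site. The values below are totals per gene, so they do not tell which start site was used.

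Values are reads per gene scaled to library size (CPM), and libraries held between 8912251 and 20619153 reads, with a median of 14947498. Differences are those of log2(CPM + 1), a scale on which changes of low genes look smaller than they are, and called differences had an adjusted p under 0.05 in limma across 18428 tested genes. Unless another tool or setting is named, p-values below are these limma p-values with Benjamini-Hochberg adjustment. Replicates are separate embryos, as the series text describes them. The targeted gene went against its label: mean Hoxa2 in PA2 was 22.3, 40.7, 47.5 and 58.3 CPM in wildtype and 28.7, 60.7, 97.7 and 132.4 CPM with the Hoxa2-/- label at the 4 stages. Its label difference in PA2 was 1.02 at E10.0 (adjusted p = 0.000108) and 1.16 at E10.5 (6.93e-05). Reads were counted over the entire gene, the use of strand is not stated, and the antisense gene Hoxaas2 overlaps it, so this value does not tell whether functional transcript was made. Libraries also divided in a way that crossed the label. Ski, a co-repressor gene, lay at 26.3 to 108.1 CPM in the 24 wildtype libraries that are not of E10.0, at 9.52 to 15.5 in the 10 that are, and at 9.28 to 22.8 in the 34 libraries with the Hoxa2-/- label. Except at E10.0, this division and the label cannot be told apart, whereas comparisons of the arches, and of E10.5 with E9.0, lie on 1 side of it. In 7 libraries, yolk sac endoderm markers summed to at least 20 CPM. They were wildtype PA1 E9.0 replicates 3 and 4, wildtype PA2 E10.0 replicate 3 and, with the Hoxa2-/- label, PA2 E9.0 replicate 3, PA2 E9.5 replicate 3, and PA1 and PA2 E10.0 replicate 4. Whole arches mix crest mesenchyme with epithelium, mesoderm, vessels and nerves, so fewer cells of a type and less RNA per cell cannot be told apart.

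Per kilobase of exon, Cbfb had the highest mean over all libraries at 35.4 CPM per kb, and Sox9 followed at 22.0. Sox5 lay at 1.69, Sox6 at 0.636, Runx1 at 0.196, Runx3 at 0.0509 and Runx2 at 0.0446 CPM per kb. On GRCm38 the genes lie at chr11:112782224-112787760 on the plus strand (Sox9), chr6:143828425-144781977 on the minus strand (Sox5), chr7:115470872-116038796 on the minus strand (Sox6), chr16:92601466-92826149 on the minus strand (Runx1), chr17:44495987-44814797 on the minus strand (Runx2), chr4:135120652-135177990 on the plus strand (Runx3) and chr8:105170674-105217989 on the plus strand (Cbfb). Runx3 did not reach 1 CPM in any library and was not tested. Runx2 did so in 3 libraries, all of wildtype E10.5, and passed the filter on low values only through them. The remaining 5 members reached that level in enough libraries on both sides of the label.

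Sox9 began high in PA1 and low in PA2. The order of the arches' libraries had turned around by E10.5, although the difference at that stage was called under neither label. In wildtype PA1 the 5 libraries of E9.0 read 133.3, 131.6, 116.1, 108.4 and 119.6 CPM, the E9.5 libraries read 98.0, 132.3, 83.2, 159.7 and 124.2, the E10.0 libraries read 116.6, 100.4, 69.1, 122.4 and 95, and the 3 of E10.5 read 71.7, 69.9 and 78.6. In wildtype PA2 the 4 libraries of E9.0 read 52.9, 39.2, 34.8 and 35.3 CPM, the 4 of E9.5 read 68.2, 78.7, 60.4 and 78.0, the 5 of E10.0 read 84.9, 84.7, 66.1, 76.0 and 57.2, and the 3 of E10.5 read 102.7, 118.4 and 100.8. All PA2 libraries lay below all PA1 libraries at the 2 earlier stages, the arches overlapped at E10.0, and all PA2 libraries lay above all PA1 libraries at E10.5. PA1 of the Hoxa2-/- label read 86.3, 118.4, 87.2 and 112.0 CPM at the first stage, then 124.2, 116.3, 67.2, 117.9 and 120.5, then 134.9, 83.2, 113.5, 89.8 and 98.3, and 71.1, 87.3 and 73.6 at the last. PA2 of that label read 30.8, 60.8, 52.2 and 42.0 CPM at the first stage, then 81.2, 89.6, 82.8, 128.6 and 63.9, then 103.5, 118.1, 113.4, 75.8 and 80.7, and 115.3, 94.9 and 93.7 at the last. Here too the arches were fully apart at E9.0 and at E10.5, in opposite directions, and they overlapped at both stages between.

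**Figure D1:**
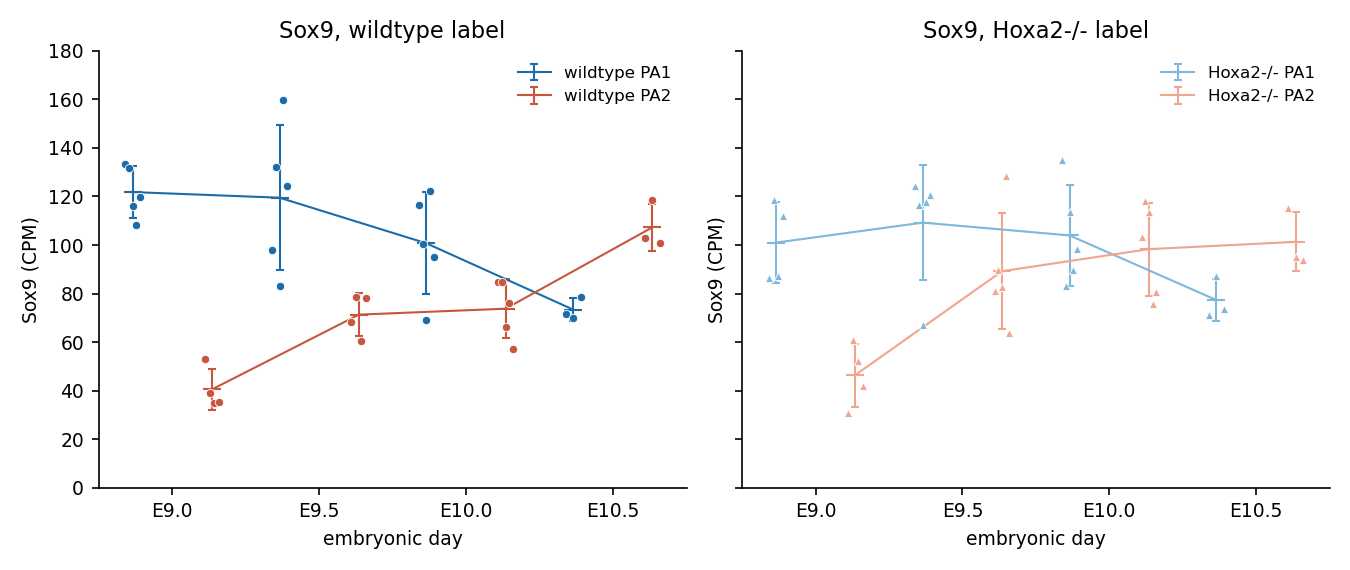
Sox9 in CPM (vertical axis) by stage (horizontal axis), with PA1 and PA2 shown separately for each label; each point is 1 library and the lines join group means with SD bars. PA2 rises from 40.6 to 107.3 CPM in wildtype while PA1 goes from 121.8 to 73.4.

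Comparing the arches, mean Sox9 in wildtype PA2 at E9.0 was 40.6 ± 8.45 CPM (SD, n = 4) against 121.8 ± 10.6 (SD, n = 5) in PA1. The difference was -1.58 with a standard error of 0.18 (adjusted p = 1.51e-09), and PA2 was lower in all 4 embryos with both arches. At the next stage it was -0.71 (adjusted p = 0.00303, lower in 4 of 4 embryos), and by E10.0 it was -0.43 (0.136, lower in 5 of 5). At E10.5 the wildtype difference was 0.54, with a 95% interval from 0.10 to 0.98, and it was not called (adjusted p = 0.434), although PA2 was higher in 3 of 3 embryos. A fit to these 2 groups alone called it (adjusted p = 0.00585). Under the Hoxa2-/- label Sox9 was lower in PA2 at E9.0, with a difference of -1.13 (adjusted p = 1.18e-05, 4 of 4 embryos). The later differences under that label, in stage order, were -0.29 (0.308, lower in 3 of 5), -0.08 (0.874, lower in 4 of 5) and 0.38 (0.577, higher in 3 of 3). Called differences of Sox9 between the arches passed the threshold under every alternative setting and with each library left out.

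From E9.0 to E10.5 Sox9 rose in PA2 under both labels, by 1.40 in wildtype (adjusted p = 2.08e-07) and 1.14 with the Hoxa2-/- label (1.53e-05). The wildtype mean of E10.5 was 2.65 times that of E9.0. In wildtype PA1 it fell by 0.72 (adjusted p = 0.0024), to 0.603 of the mean of E9.0. In PA1 with the Hoxa2-/- label the difference was -0.37 and was not called (0.17), but it was in a fit to the 2 compared groups alone (0.0361). A comparison added after the levels were seen set the change in PA2 against that in PA1. It was 2.12 with a standard error of 0.29 in wildtype (adjusted p = 5.34e-07) and 1.52 with a standard error of 0.29 with the Hoxa2-/- label (0.000585), and both passed with each library left out. Ordering the 16 groups by mean Sox9, with PA2 (40.6 CPM) and PA1 (121.8 CPM) of wildtype E9.0 at its ends, no 2 neighbours had ranges that were apart.

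Markers of other cells moved with the arch and the stage. The 6 crest mesenchyme markers (Prrx1, Prrx2, Twist1, Pdgfra, Dlx2 and Alx4) summed to 498.7 to 567.5 CPM in wildtype PA1 and 331.6 to 385.3 in wildtype PA2 at E9.0. Among them, 4 of 6 were lower in PA2, where 18.7% of all genes were called. At E10.5 the sums were 633.0 to 749.0 in PA1 and 551.5 to 653.4 in PA2, with medians of 670.0 and 620.3. These ranges overlapped, and 1 of 6 was lower in PA2 (1.52% of all genes called). The added comparison of the change in PA2 with that in PA1 called 4 of 6 in wildtype, 2 higher and 2 lower (3.35% of all genes). Of these, Dlx2 lost its call in fits leaving out a library. Cardiac muscle markers summed to 8.1 to 21.6 CPM in wildtype PA1 at E9.0. In wildtype PA2 of that stage they summed to 471.9 to 494.7 CPM in 3 libraries and 15.9 in replicate 2. That library, whose erythroid markers summed to 53810.4 CPM against 2791.9 to 4071.0 in the others, had 39.2 CPM of Sox9, inside the range of its group. Of 4 tested markers of migrating crest and glia, all fell between the first and last stages in wildtype PA1 and 3 fell in wildtype PA2. Of all genes, 42.5% and 36.9% were called there. Beyond these values, the part of any of these cells in the Sox9 differences was not tested.

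Sox5 and Sox6, the partners of Sox9, were lower in PA2 than in PA1 in every difference between the arches that was called. Sox5 at E9.0 read 17.5, 18.5, 19.1 and 19.0 CPM in wildtype PA2 (embryos 1, 2, 4 and 5), and 21.7 to 28.7 with a median of 25.8 in PA1. At E10.0 its 5 wildtype PA2 libraries lay at 16.9 to 20.3 CPM with a median of 18.1, and the 5 of PA1 at 26.0 to 37.3 with a median of 26.5. The arches did not overlap at either stage. The differences were -0.44 (adjusted p = 0.00785) and -0.61 (0.000141), while E9.5 gave -0.22 (0.191) and E10.5 gave -0.38 (0.351). At E10.5 the arches were apart too under each label, with PA2 lower in 3 of 3 embryos of each, although neither difference was called. Under the Hoxa2-/- label only E10.0 passed, at -0.38 (0.0445), and this call ended with no filter (0.0502), without the yolk sac libraries (0.0927), and without PA2 replicate 1, 2 or 3 or PA1 replicate 2, 3, 4 or 5 (0.0694 to 0.125). With the embryo as a replicate block, E9.0 passed too, at -0.29 (0.0417 against 0.0925).

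Sox6 in wildtype PA2 at E10.0 lay at 5.68 to 7.54 CPM with a median of 6.25, below all 5 PA1 libraries at 9.5 to 13.5 with a median of 11.0. The difference was -0.74 (adjusted p = 0.00323), and PA2 was lower in 5 of 5 embryos. At E9.0 it was -0.57 (0.0226), a call that was lost in a fit to the 2 groups alone (0.0665), without the yolk sac libraries (-0.41, 0.128), without PA2 replicate 2 (-0.36, 0.203) and without PA1 replicate 3 (0.0735) or 4 (0.0504). The E10.0 difference of the Hoxa2-/- label was -0.51 (0.0818), and it passed with the replicate block (0.0254) and in a fit to the 2 groups alone (0.0336). At E10.5 the wildtype difference was -0.54 and not called (0.454), although the arches were apart and PA2 was lower in 3 of 3 embryos, and a fit to these 2 groups alone called it (0.031). Sox6 was not called between E10.5 and E9.0 in any arch or label, with differences from -0.17 to 0.11.

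**Figure D2:**
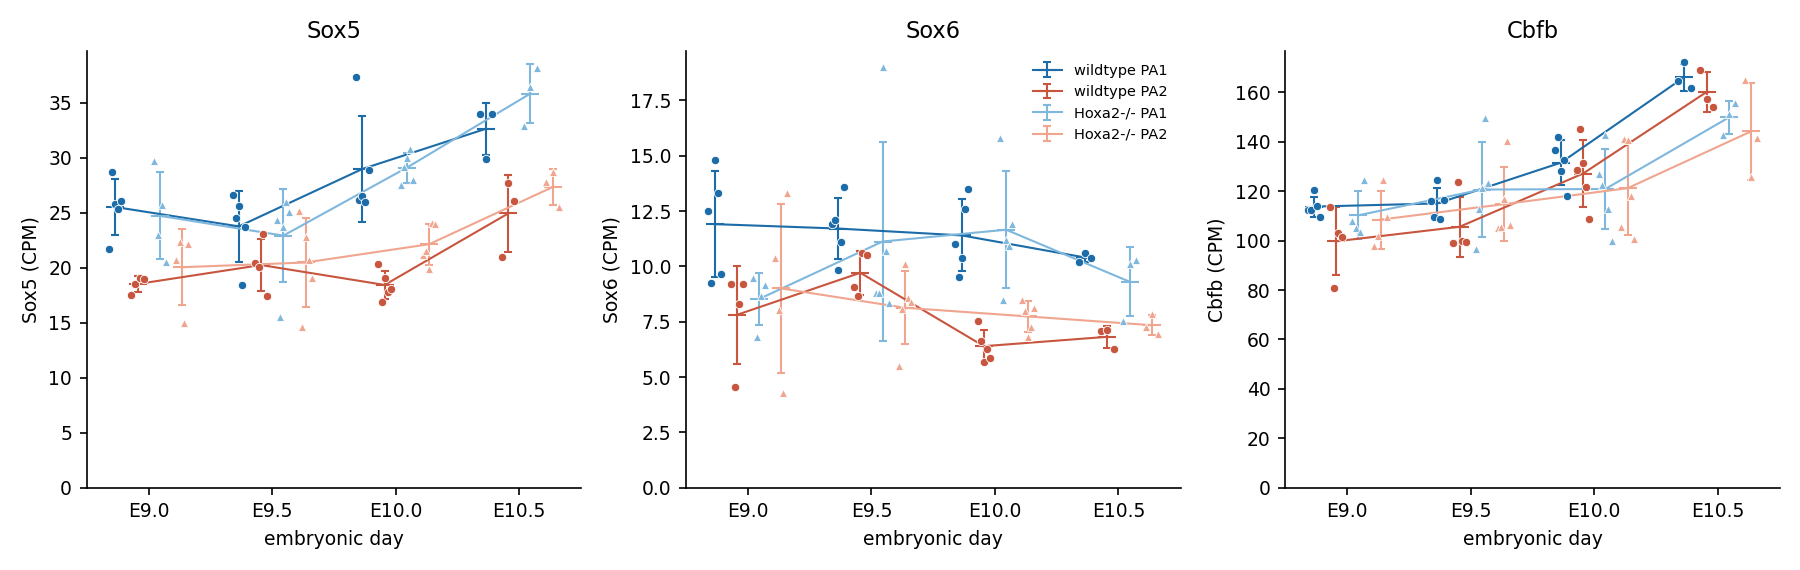
Sox5, Sox6 and Cbfb in CPM (vertical axes) by stage (horizontal axis), with PA1 and PA2 for each label; points are libraries and lines join group means with SD bars. Sox5 and Cbfb drift upward in all 4 series, and Sox6 in PA2 lies below PA1 at E10.0.

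Over the same interval Sox5 rose in all 4 series, by 0.35 in wildtype PA1 (adjusted p = 0.0315), 0.40 in wildtype PA2 (0.0202), 0.53 in PA1 with the Hoxa2-/- label (0.00265) and 0.44 in PA2 with that label (0.0117). Ranges of the 2 stages were apart in each. The wildtype PA1 call was lost without the yolk sac libraries (0.0532) or without replicate 1 of E9.0 or replicate 1 or 3 of E10.5 (0.0895 to 0.106), and the wildtype PA2 call without replicate 2 or 3 of E10.5 (0.123 and 0.0741). In PA2 with the Hoxa2-/- label it was lost in a fit to the 2 groups alone (0.121), without the yolk sac libraries (0.111), without replicate 3 of E9.0 (0.0951) and without replicate 2 of E10.5 (0.0508). No difference of Sox5 between the 2 arches in this change was called (0.05 in wildtype and -0.09 with the Hoxa2-/- label).

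Runx1, known for its part in forming blood stem cells, was the runt gene with the most transcript, and it was higher in PA2 than in PA1 from E9.5 onward in wildtype. At E9.0 wildtype PA1 read 0.627, 1.57, 1.28, 1.66 and 1.23 CPM and wildtype PA2 1.75, 1.92, 0.772 and 1.3. At E9.5 wildtype PA1 read 0.676, 1.25, 0.41, 0.641 and 0.9 CPM and wildtype PA2 1.77, 1.82, 1.12 and 2.38. The arches overlapped at both of these stages. At E10.0 wildtype PA1 read 1.27, 0.706, 2.0, 1.09 and 1.14 CPM and wildtype PA2 4.75, 2.83, 4.04, 3.26 and 2.58. At E10.5 wildtype PA1 read 4.74, 3.16 and 5.62 CPM and wildtype PA2 14.2, 9.11 and 9.54. At these later stages the arches were fully apart. PA1 of the Hoxa2-/- label read 1.1, 0.754, 1.92, 1.24 and 0.825 CPM at E10.0 and PA2 3.27, 5.43, 5.06, 3.6 and 2.92. At E10.5 with that label PA1 read 1.56, 1.44 and 1.72 CPM and PA2 5.57, 3.04 and 5.75. Again all PA2 libraries were above all PA1 libraries. In Hoxa2-/- PA2 of E9.5 the 5 libraries spread from 0.896 to 5.1 CPM and overlapped those of PA1, at 0.423 to 1.37. Its replicate 4, at 5.1, was also the highest of its group in Sox9 (128.6 CPM) and in the sum of crest mesenchyme markers (561.2 CPM, others 381.3 to 457.2), and the lowest in that of cardiac muscle markers (7.83 CPM).

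**Figure D3:**
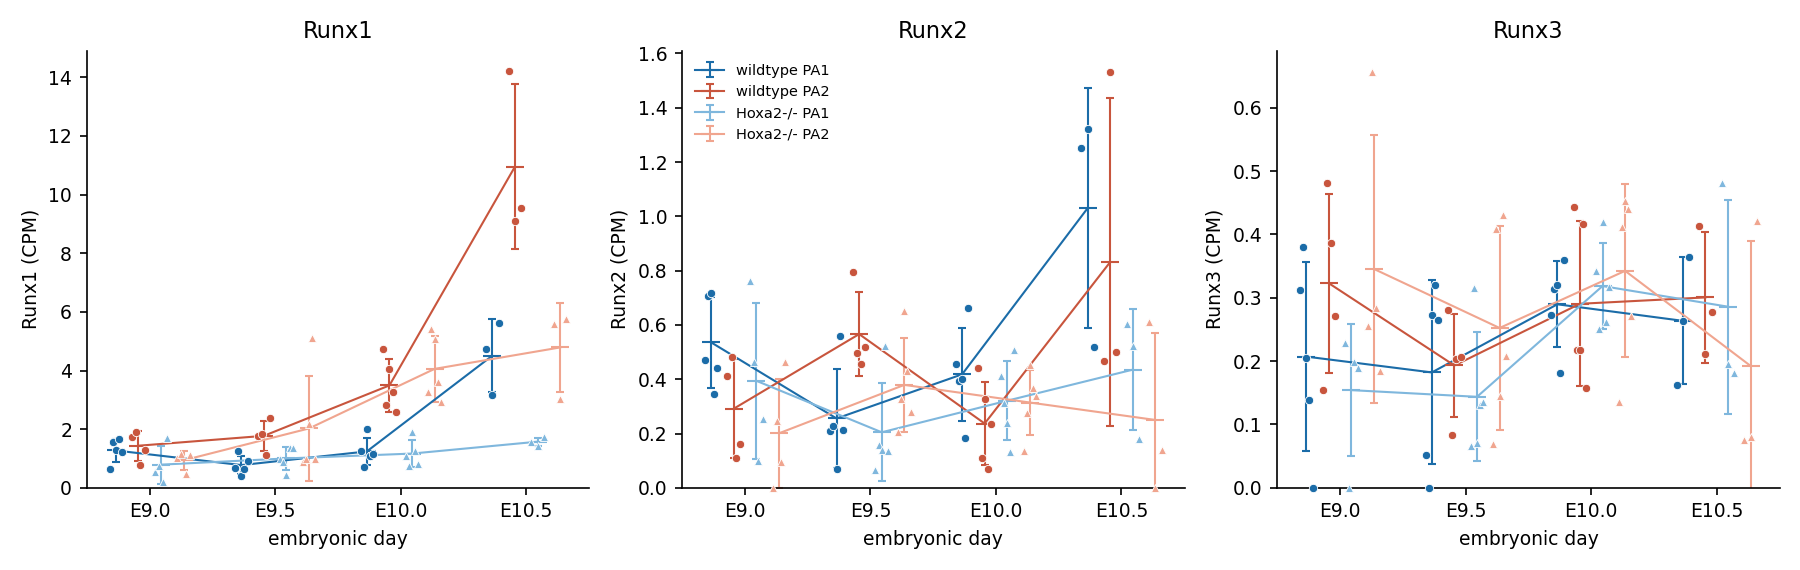
Runx1, Runx2 and Runx3 in CPM (vertical axes, each with its own scale) by stage (horizontal axis), with PA1 and PA2 for each label; points are libraries and lines join group means with SD bars. Runx1 in wildtype PA2 reaches a mean of 11.0 CPM at E10.5, while Runx3 never reaches 1 CPM.

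In wildtype the difference of Runx1 between the arches was 0.09 (adjusted p = 0.832), 0.64 (0.0363, higher in PA2 in 4 of 4 embryos), 1.00 (0.00138, 5 of 5) and 1.12 (0.0204, 3 of 3) in stage order. Under the Hoxa2-/- label it was 0.16 (0.689), 0.46 (0.199), 1.22 (0.000117, 5 of 5) and 1.13 (0.0213, 3 of 3). Both E10.0 calls held under every setting and with each library left out. The wildtype E9.5 call ended with a pseudocount of 5 (0.096) and without PA1 replicate 1, 3 or 4 or PA2 replicate 1, 2 or 5 (0.0615 to 0.138). That of wildtype E10.5 ended with a pseudocount of 0.25 (0.173), in edgeR (0.0984), and without PA1 replicate 1 or 2 or PA2 replicate 1 (0.0565 to 0.247). That of the Hoxa2-/- label at E10.5 ended with a pseudocount of 0.25 (0.0727), in edgeR (0.0577), and without PA1 replicate 1, 2 or 3 or PA2 replicate 1 or 3 (0.0634 to 0.152).

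Runx1 rose from E9.0 to E10.5 by 1.27 in wildtype PA1 (adjusted p = 4.95e-05), 2.30 in wildtype PA2 (5.15e-10) and 1.56 in PA2 with the Hoxa2-/- label (6.26e-06). The ratios of means were 3.54, 7.63 and 5.1. In PA1 with that label the difference was 0.59 and was not called (0.0882), but it was with a pseudocount of 0.25 (0.0401). The added comparison of the change in PA2 with that in PA1 gave 1.02 in wildtype (0.118) and 0.97 with the Hoxa2-/- label (0.101). Both passed with the replicate block (0.0445 and 0.0403) and with a pseudocount of 5 (0.00507 and 0.0432). Of the 16 group means of Runx1, from 0.776 to 11.0 CPM, only the highest, wildtype PA2 at E10.5, had a range apart from its neighbour's.

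Markers of blood cells and of other cell types were read over the same stages as Runx1. Blood progenitor and macrophage markers (Ptprc, Spi1, Csf1r, Itga2b, Myb and C1qb) summed to a median of 6.77 CPM in wildtype PA1 and 9.12 in wildtype PA2 at E9.0, and to 29.1 and 26.8 at E10.5. Of the 6, 5 rose in each arch, where 42.5% (PA1) and 36.9% (PA2) of all genes were called. The sixth, Itga2b, was called lower at E10.5 in PA2 (-0.87, adjusted p = 0.046), a call lost with the replicate block (0.0514), a pseudocount of 0.25 (0.0526), no filter (0.0509), a fit to the 2 groups alone (0.12) and in 4 of 7 fits leaving out a library. Spi1 lost its rise in PA1 in 1 such fit (0.0858). At E10.0, where Runx1 was higher in PA2, the sums were 11.0 to 23.4 CPM in wildtype PA1 and 10.2 to 15.7 in wildtype PA2. There 2 of 6 were lower in PA2, Csf1r at 1.32 against 3.68 CPM (-0.96, adjusted p = 0.022) and Ptprc at 0.423 against 1.22 (-0.59, 0.0283), and none was higher. The E10.0 sums of the Hoxa2-/- label were 11.5 to 19.9 CPM in PA1 and 11.1 to 19.5 in PA2. Both calls were lost in edgeR (0.0968 for Csf1r and 0.121 for Ptprc), and in 4 and 5 of the 10 fits that left out 1 library. That of Csf1r was also lost with a pseudocount of 0.25 (0.0869), and that of Ptprc without the yolk sac libraries (0.055). Between the arches at E10.0, 5.94% of all genes were called in wildtype and 4.23% with the Hoxa2-/- label. Of 5 markers of cranial mesoderm and skeletal muscle, 4 were higher in PA2 under each label. Of 6 tested neuron markers, 3 were higher in wildtype PA2. Among these, Tubb3 lost its call in edgeR (0.092), with no filter (0.0521), with a pseudocount of 5 (0.0981) and without the yolk sac libraries (0.0588). Endothelium markers at E10.0 had median sums of 157.4 CPM in wildtype PA1 and 223.5 in wildtype PA2. With the Hoxa2-/- label these were 156.9 and 222.2. limma and edgeR called 0 of these 5 between the arches under either label. At an unadjusted p under 0.05 in limma there were 2 in wildtype and 1 with the Hoxa2-/- label. The part of any of these cells in the Runx1 differences was not tested.

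Runx2 and Runx3 were barely transcribed at these stages. Runx2, the factor required for osteoblasts, had 0 to 29 reads per library, and 22 libraries held 3 reads or fewer. The highest libraries were wildtype PA2 E10.5 replicate 2 at 1.53 CPM and wildtype PA1 E10.5 replicates 2 and 1 at 1.32 and 1.25. Group means lay between 0.201 and 1.03 CPM. Runx2 in wildtype PA2 was at 0.291 CPM at E9.0 and 0.831 at E10.5, a difference of 0.47 (adjusted p = 0.0257). This call was lost without replicate 4 (0.083) or 5 (0.0682) of E9.0. Leaving out replicate 2 of E10.5 gave no value, because Runx2 then failed the filter. The difference in wildtype PA1 was 0.38 (0.051). Only wildtype E10.5 libraries admitted Runx2 to the test, so both differences are descriptions. Between the arches Runx2 was not called at any stage, though wildtype E9.5, at 0.33 (0.0991), passed with the replicate block (0.0405). Runx3 had 0 to 9 reads per library, 31 libraries held 3 or fewer, and the 16 group means lay between 0.144 and 0.345 CPM. All neighbours in the order of these means had overlapping ranges.

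Cbfb, the shared partner of the runt factors, did not follow Runx1 between the arches. Its mean in wildtype went from 113.7 ± 4.09 CPM (SD, n = 5) at E9.0 to 166.1 ± 5.48 (SD, n = 3) at E10.5 in PA1, and from 99.7 ± 13.7 (SD, n = 4) to 160.1 ± 7.97 (SD, n = 3) in PA2. Under the Hoxa2-/- label it went from 110.2 to 149.8 CPM in PA1 and from 108.5 to 144.2 in PA2. The 2 stages did not overlap in any of the 4 series. The rises were 0.54 (adjusted p = 7.51e-05), 0.69 (4.03e-06), 0.44 (0.00266) and 0.40 (0.00594) in the order given. The last of them was lost in a fit to the 2 groups alone (0.0777) and without replicate 1 of E10.5 (0.0891). No arch or label difference of Cbfb was called, and those between arches ran from -0.20 to 0.00.

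Runx2 is left out of the counts that follow, because the libraries in which it was high admitted it to the test. Of 40 tests of the other 5 tested members between arches, 13 passed, 5 of them for Runx1, 3 each for Sox9 and Sox5 and 2 for Sox6. In wildtype the number of the 5 members that differed, with the share of all genes tested beside it, was 3 (18.7%), 2 (26.3%), 3 (5.94%) and 1 (1.52%) in stage order. Under the Hoxa2-/- label it was 1 (24.6%), 0 (9.58%), 2 (4.23%) and 1 (1.37%). The 0 is from limma at E9.5, where 2 members had an unadjusted p under 0.05 and edgeR called none. Between E9.0 and E10.5, 14 of 20 tests passed, 4 of 5 members in wildtype PA1 (42.5% of all genes), 4 in wildtype PA2 (36.9%), 2 in PA1 with the Hoxa2-/- label (31.2%) and 4 in PA2 with it (30.9%). The added comparison of both changes called 1 member in wildtype (3.35%) and 1 with the Hoxa2-/- label (7.33%), Sox9 in each.

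**Figure D4:**
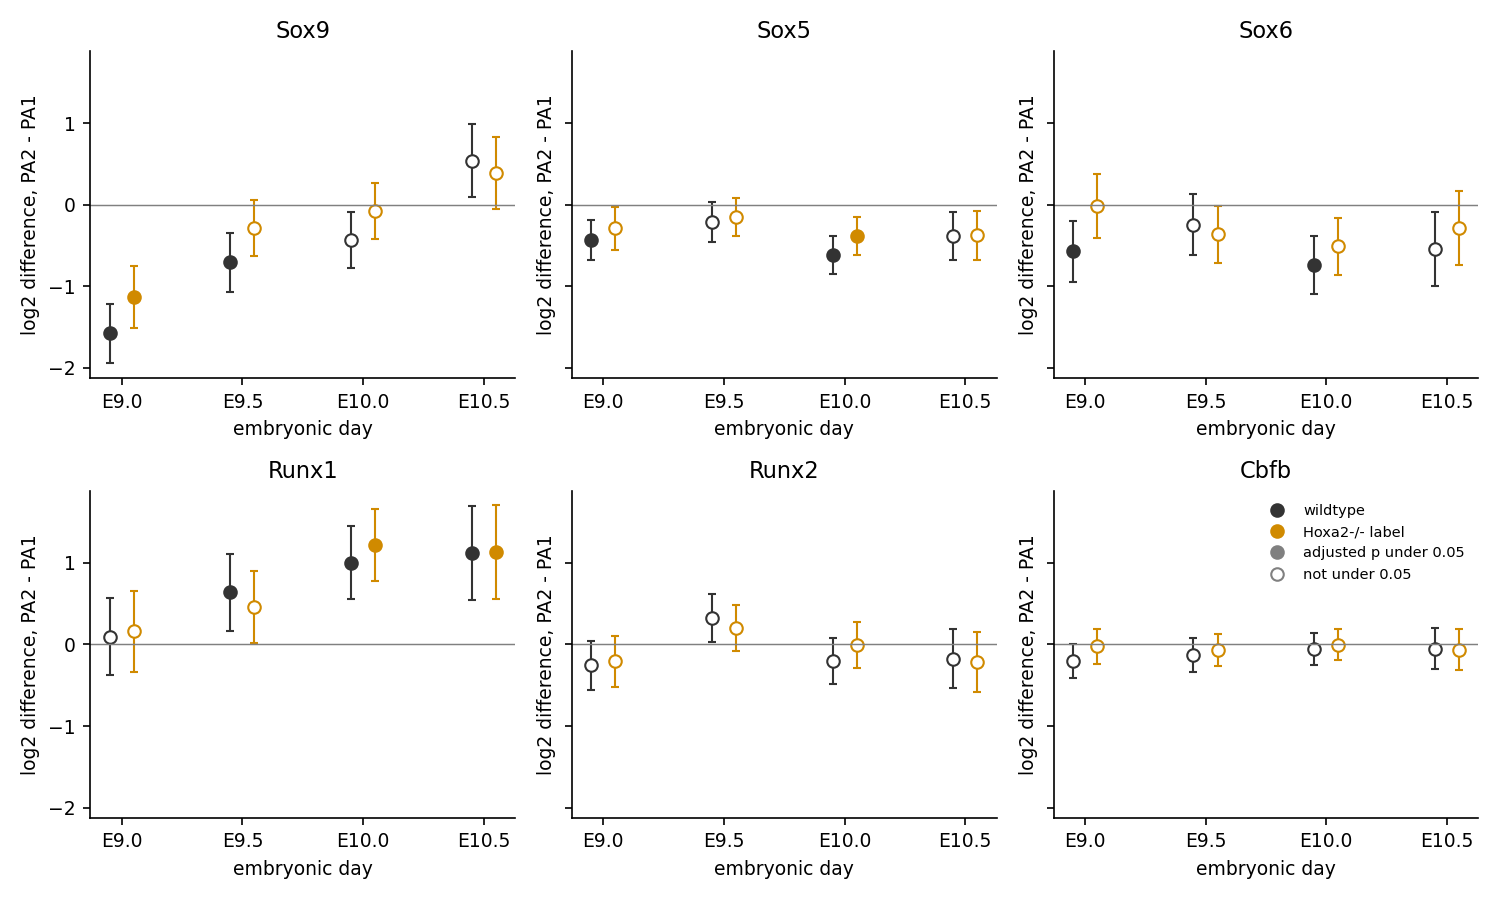
Difference of PA2 from PA1 on the log2(CPM + 1) scale (vertical axes) by stage (horizontal axes) for the 6 tested members, 1 panel each, with both labels; bars are 95% intervals and filled points passed an adjusted p of 0.05. Sox9 moves from -1.58 at E9.0 to 0.54 at E10.5 in wildtype while Runx1 moves from 0.09 to 1.12.

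The comparison of labels asks what changes in the arch skeleton's regulators when Hoxa2 is lost, within the limit that Hoxa2 reads were not lower in the libraries so labelled. Sox9 in PA2 gave differences of 0.17 (adjusted p = 0.617), 0.29 (0.415), 0.40 (0.589) and -0.09 (0.864) in stage order, none of them called. At E10.0, the stage at which all libraries lie on 1 side of the Ski division, Sox9 stood at 98.3 ± 19.1 CPM (SD, n = 5) with the Hoxa2-/- label and 73.8 ± 12.1 (SD, n = 5) in wildtype. The libraries of both labels overlapped, and the 95% interval of the difference ran from 0.06 to 0.75. Crest mesenchyme markers summed to 495.7 to 595.7 CPM in these libraries of the Hoxa2-/- label and 428.1 to 505.4 in wildtype. limma called 0 of 6 (0.0814% of all genes), with 3 of 6 at an unadjusted p under 0.05, and edgeR called 0. The part of crest mesenchyme in the Sox9 difference was not tested. Sox9 in PA1 was not called either, with differences from -0.28 to 0.07.

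**Figure D5:**
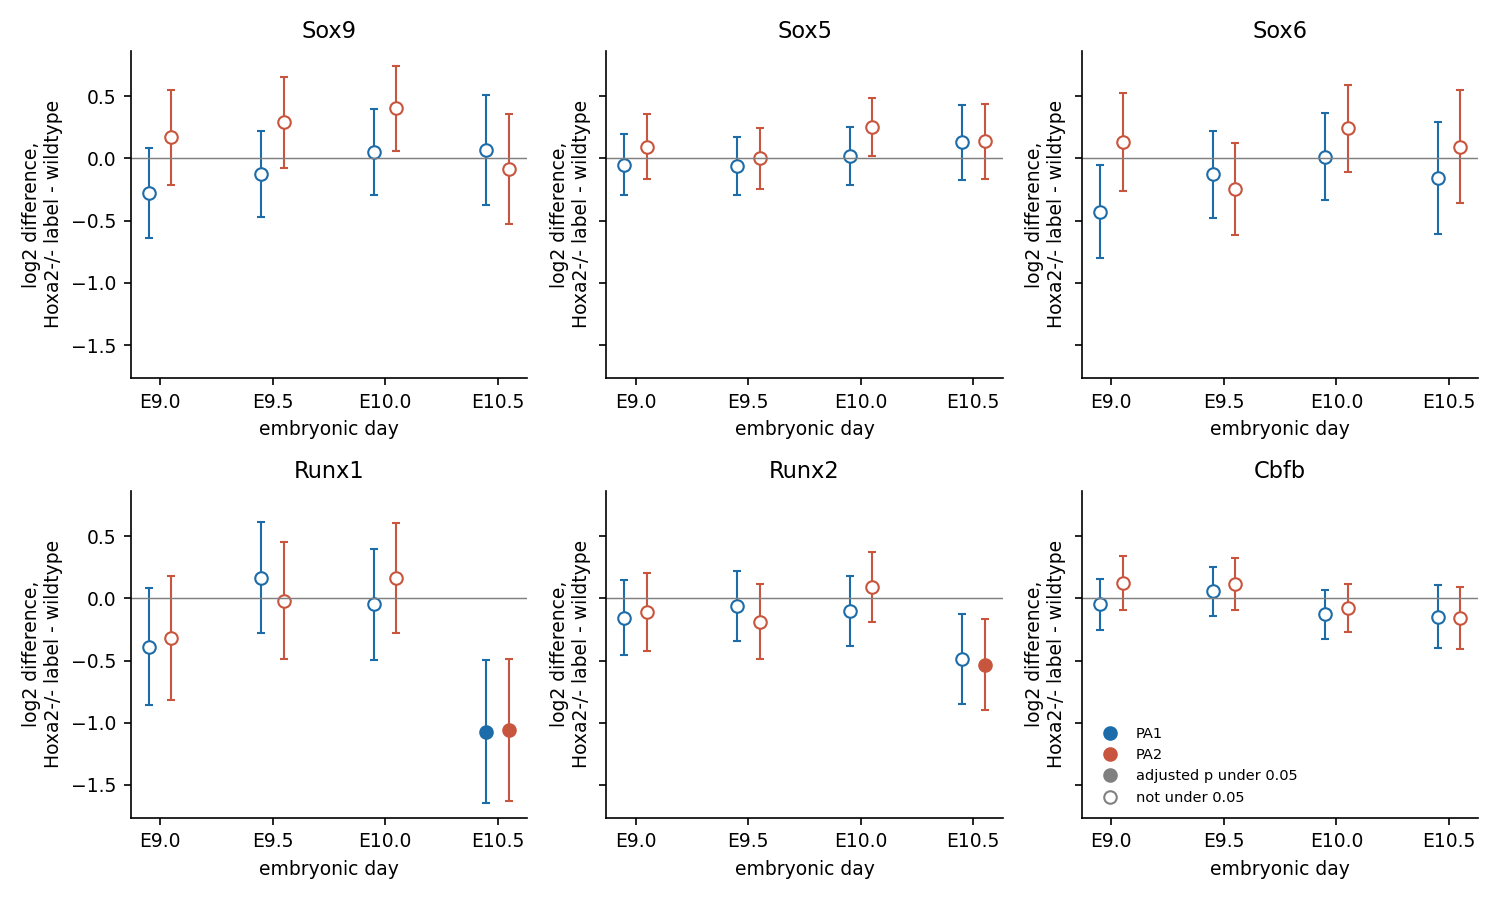
Difference of the Hoxa2-/- label from wildtype on the log2(CPM + 1) scale (vertical axes) by stage (horizontal axes) for the 6 tested members, 1 panel each, with both arches; bars are 95% intervals and filled points passed an adjusted p of 0.05. The filled points are Runx1 in both arches and Runx2 in PA2, all at E10.5. Only wildtype E10.5 libraries admitted Runx2 to the test, so its point is a description.

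Runx1 was lower with the Hoxa2-/- label at E10.5 in both arches, where the label and the library division cannot be told apart. The difference was -1.07 in PA1 (adjusted p = 0.0231), from a mean of 4.51 ± 1.24 to 1.57 ± 0.144 CPM (SD, n = 3 each), and -1.06 in PA2 (0.0102), from 11.0 ± 2.84 to 4.79 ± 1.51 (SD, n = 3 each). Ranges were apart in both arches. At E10.0 the differences were -0.05 in PA1 (1.0) and 0.16 in PA2 (0.897). The E10.5 calls ended with a pseudocount of 0.25 (0.0602 and 0.0595). In PA1 the call also ended without wildtype replicate 1 or 3 or replicate 2 or 3 of the Hoxa2-/- label (0.0714 to 0.138), and in PA2 without wildtype replicate 1 (0.0878) or replicate 2 of that label (0.107). Blood progenitor and macrophage markers at E10.5 summed to 28.6 to 30.3 CPM in wildtype PA1 and 15.1 to 30.3 in PA1 with the label, and to 25.0 to 30.3 and 16.5 to 28.9 in PA2. limma called 0 of the 6 between labels in either arch, where 3.05% (PA1) and 10.3% (PA2) of all genes were called. In each arch 1 had an unadjusted p under 0.05 in limma, and edgeR called 0. The part of these cells in the Runx1 differences was not tested.

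Runx2 at E10.5 was lower with the Hoxa2-/- label in PA2, at 0.25 against 0.831 CPM, a difference of -0.53 (adjusted p = 0.0484). That of PA1 was -0.49 (0.142). The PA2 libraries read 0.466, 0.499 and 1.53 CPM in wildtype at their lowest, median and highest and 0.0, 0.14 and 0.61 with the label, so the ranges overlapped. The call ended with a pseudocount of 0.25 (0.0538), in edgeR (0.0904), without the yolk sac libraries (0.0501), and without replicate 2 (0.271) or 3 (0.16) of the Hoxa2-/- label. Leaving out wildtype replicate 2, at 1.53 CPM, gave no value, because Runx2 then failed the filter. Because Runx2 entered the test only through wildtype E10.5 libraries, this difference and that between the stages in wildtype PA2 are descriptions.

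Over the 8 comparisons of labels, 2 of the 40 tests of members other than Runx2 passed. In PA1 no member differed at the first 3 stages, where 2.08%, 23.6% and 0.0% of all genes did, and 1 did at E10.5 (3.05%). In PA2 none differed at the first 3 stages either (14.0%, 4.48% and 0.0814% of all genes), and 1 did at E10.5 (10.3%). At an unadjusted p under 0.05, 1 member differed in PA1 at E9.0, 2 in PA2 at E10.0 and 0 in the remaining 4 of these limma tests with none called. At E10.0 in PA1 424 genes had an unadjusted p under 0.05, and edgeR also called none. The label difference in PA2 minus that in PA1 was called for no member at any stage, and for 0.0%, 0.0109%, 0.0163% and 0.038% of all genes in stage order. edgeR called no member in it either. At an unadjusted p under 0.05 there was 1 member at E9.0, Sox6 at 0.56, and 0 later. For Sox9 these differences were 0.45, 0.41, 0.35 and -0.16 in stage order, with adjusted p-values from 0.838 to 1.0.

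Genes that act beside these factors were read from fixed lists. Cartilage matrix genes are the best known targets of Sox9, Sox5 and Sox6, and 11 of the 17 listed were tested. From E9.0 to E10.5, 4 rose and 3 fell in wildtype PA1 (median -0.12 against 0.00 over all genes, 42.5% of them called) and 4 rose and 2 fell in wildtype PA2 (0.06 against -0.01, 36.9% called). Cnmd lost its fall in PA1 with a pseudocount of 5 (0.0768), and Col27a1 its rise in PA2 with that pseudocount (0.0623) and in 5 of 7 fits leaving out a library. Col9a1, a chain of type IX collagen, rose in both arches, from 83.0 ± 6.06 to 225.6 ± 14.0 CPM in PA1 (1.43, adjusted p = 1.13e-06) and from 35.5 ± 9.3 to 247.2 ± 55.5 in PA2 (2.78, 8.04e-14). Col11a1 rose by 1.17 in PA2 (4.51e-05), and Col9a2 by 1.05 in PA1 (0.000173). Hapln1, which links hyaluronan to proteoglycan, fell from 146.7 to 33.2 CPM in PA1 and from 103.1 to 25.0 in PA2. At E9.0, when Sox9 was low in PA2, 6 of 11 were lower there and 1 higher (median -0.48 against -0.01 over all genes, of which 18.7% were called). Of these 7 calls, those of Col9a1 and Col9a2 held in every setting that tested them and with each library left out. Col9a1 differed by -1.24 (1.8e-05) and Col2a1, at 206.1 against 311.8 CPM, by -0.61 (0.0186, lost in 1 of 9 fits leaving out a library, 0.137). The other lower calls were lost more often when a library was left out, in 3 of 9 such fits for Col9a3, 5 for Matn3, 5 for Hapln1 and 6 for Col11a1. Col11a1 was also lost with a pseudocount of 5 (0.059), no filter (0.0537) and median-of-ratios scaling (0.0564), Hapln1 in edgeR (0.0554) and without the yolk sac libraries (0.125), and Matn3 without those libraries (0.204). Col9a2 went the opposite way, at 9.6 against 3.82 CPM (1.10, 0.000106). At wildtype E9.5, where Sox9 was also called lower in PA2, 3 of the 11 were higher there and 1 lower (26.3% of all genes called). Of these 4 calls, 2 held in every setting that tested them and with each library left out, and those 2 were higher in PA2. At E10.5 limma called 0 of the 11 between wildtype arches (1.52% of all genes), with 2 at an unadjusted p under 0.05, and edgeR called 0. In PA2 limma called 0 of the 11 between labels at E10.0 (0.0814% of all genes), with 2 at an unadjusted p under 0.05. At E10.5 it called 0 (10.3% of all genes), with 1 at an unadjusted p under 0.05. edgeR gave 0 for both.

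Of the bone lineage list, 6 of 12 were tested. Sp7, the osteoblast factor downstream of Runx2, rose from 0.713 to 1.74 CPM in wildtype PA1 from E9.0 to E10.5 (0.68, adjusted p = 0.00203). Alpl, the alkaline phosphatase, fell from 26.2 to 10.8 CPM in wildtype PA1 and from 21.5 to 8.32 in wildtype PA2, and Spp1 fell in PA1 from 9.5 to 1.63. In total 2 of 6 rose and 2 fell in wildtype PA1, where 42.5% of all genes were called, and 2 rose and 1 fell in wildtype PA2, where 36.9% were. Of the 3 calls in PA2, that of Sp7 was lost in 1 of 7 fits leaving out a library (0.0875). In PA2 at E10.5 limma called 0 of the 6 between labels (10.3% of all genes), with 2 at an unadjusted p under 0.05, and edgeR called 0.

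Of 3 near relatives of the Sox members, 3 fell in wildtype PA1 and 2 in wildtype PA2 from E9.0 to E10.5. The shares of all genes called were 42.5% and 36.9%. Sox10, which marks migrating crest and glia, fell from 22.7 to 0.598 CPM in wildtype PA1 (-3.83, adjusted p = 1.4e-07) and from 23.4 to 1.87 in wildtype PA2 (-3.09, 2.94e-05). Sox13, of the same subgroup as Sox5 and Sox6, fell from 43.8 to 16.9 CPM in PA1 and from 39.2 to 14.3 in PA2. Sox8 fell in PA1 from 8.98 to 2.98 CPM, while in PA2 it stood at 5.66 and 5.7. Sox13 was also higher with the Hoxa2-/- label at E10.5, at 37.1 against 16.9 CPM in PA1 (1.06, 0.00229) and 36.5 against 14.3 in PA2 (1.28, 5.76e-05), where label and library division cannot be told apart. It was not called in either arch at E10.0.

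Among the 13 co-repressors and inhibitors of runt factors, 6 rose and 3 fell in wildtype PA1 and 7 rose and 3 fell in wildtype PA2 from E9.0 to E10.5 (medians 0.02 and 0.38 against 0.00 and -0.01 over all genes, of which 42.5% and 36.9% were called). In PA1 6 of these 9 calls held in every setting that tested them and with each library left out, all but Tle1, Cbfa2t3 and Zfp521, and in PA2 7 of 10, all but Cbfa2t3, Hdac4 and Hdac7. Twist2, whose protein binds and inhibits Runx2, rose from 1.4 to 18.7 CPM in PA1 (3.04, adjusted p = 1.32e-12) and from 1.31 to 28.5 in PA2 (3.67, 1.67e-14). Runx1t1, the co-repressor known as ETO, rose from 23.7 to 81.8 CPM in PA1 and from 31.1 to 102.0 in PA2. Aes, a short member of the Groucho family, rose from 21.1 to 97.7 CPM in PA1 and from 50.9 to 98.9 in PA2. It was higher in PA2 at E9.0 (1.23, 1.19e-09). Of the 13, 2 were called higher and 3 lower in wildtype PA2 at that stage, where 18.7% of all genes were called. In PA2 at E10.5 Aes was lower (-0.84, 0.000586) and Tle4, a Groucho co-repressor, higher (0.80, 0.00052) with the Hoxa2-/- label. There 10.3% of all genes were called, and label and library division cannot be told apart.

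The list of condensation and upstream genes held 10, all tested, of which 3 rose and none fell in wildtype PA1 and 6 rose and 2 fell in wildtype PA2 over these stages (medians -0.01 and 0.44 against 0.00 and -0.01 over all genes). The shares of all genes called were 42.5% and 36.9%. The 3 calls in PA1 held in every setting and with each library left out. In PA2 5 of 8 did, all but Wwp2, Ncam1 and Pax9, whose fall was lost with a pseudocount of 0.25 (0.0574) and in 3 of 7 fits leaving out a library. Barx1, a homeobox gene of the arch mesenchyme, rose from 30.3 to 116.4 CPM in PA1 (2.01, adjusted p = 0.00294) and from 3.04 to 57.9 in PA2 (3.89, 3.47e-07), and it was lower in PA2 at E9.0 (-2.87, 3.73e-05). Trps1, a repressor active in cartilage, rose from 24.0 to 94.0 CPM in PA1 and from 19.8 to 85.8 in PA2. Nkx3-2, a homeobox gene of the jaw joint and middle ear, rose from 0.0104 to 3.99 CPM in PA1 and from 0.361 to 3.67 in PA2. Its E9.0 mean in PA1 was at the floor, below the worth of 1 read in those libraries (0.0491 to 0.069 CPM). Pax9 was higher in PA2 at both E9.0 (12.5 against 2.72 CPM, 1.85, 6.99e-11) and E10.0 (7.42 against 1.18, 1.95, 1.44e-12). Tnc, the matrix protein tenascin C, fell in wildtype PA2 from 101.8 to 8.32 CPM (-3.43, 5.74e-06).

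Genes whose group means ran most like those of a member were ranked by Pearson's r over the 16 groups among 10510 genes, as a description of means that share libraries and stages. For Sox9 they were Stambpl1 (r = 0.89), Dlx5 (0.887), a homeobox gene of the lower jaw, and D16Ertd472e (0.88). For Runx1 they were Igf1 (0.938), Efemp1 (0.922) and Enho (0.915), and for Cbfb Zfp637 (0.966), Apcdd1 (0.966) and Nap1l2 (0.963). For Sox5 they were Mphosph9 (0.938), Gng2 (0.902) and Wdyhv1 (0.9), and for Sox6 Peg10 (0.842), Gemin8 (0.827) and Asns (0.794). The low counts of Runx2 and Runx3 gave Igsf10 (0.886), Creb5 (0.867) and Kat6b (0.852), and Nipsnap3b (0.776), Tmem50a (0.742) and Asb8 (0.739). Between members themselves, the highest r was 0.703 for Sox5 with Cbfb, followed by 0.693 for Runx1 with Cbfb, and the lowest was -0.586 for Sox6 with Runx1.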

How the data were processed

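RNA was measured in 68 libraries of whole arches, made per the labels' protocols from polyadenylated RNA by SMART-seq v4 and Nextera XT, with PCR and no molecular identifiers described. The authors deposited 1 table with a CPM-like signal per gene and library, whose columns summed to 926298 to 1051959. The planned unit was CPM and the tests were kept. All values (100%) were whole multiples of what 1 read is worth (tolerance 0.01 reads, largest distance 7.9e-05), and the steps equalled those of library sizes scaled with TMM factors. The submitters' processing notes name mm10, TopHat2 2.1.1, bcl2fastq 2.18 and R 3.3.2. The counting program and its use of strand are not given in the sources used here. Symbols and coordinates came from GENCODE M21 (GRCm38) by identifier, and 21921 of 21948 matched. RefSeq start site windows matched 6 of the 7 members, all but Sox9.

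Groups came from the labels. Genes with at least 1 CPM in at least 3 libraries were kept (18428). limma 3.58.1 in R 4.3.3 was fitted to log2(CPM + 1), with a pseudocount of 1, a mean for each of the 16 groups and a trended prior variance, leaving 52 residual degrees of freedom. Tests were two-sided, and Benjamini-Hochberg adjustment ran over all genes tested in a contrast, with a threshold of 0.05. The fit was tested on simulated data. The fit was repeated with a pseudocount of 0.25 or 5, without the filter or with one at 5 CPM, with median-of-ratios scaling, with only the compared groups, the embryo as a replicate block, with edgeR 4.0.16 on the recovered reads, with each library left out in turn and, added after seeing the data, without the yolk sac libraries. The comparison of stage changes between arches was also added then. The series text says that both arches came from 1 embryo. Same-numbered arches deviated together (median r 0.347 over 33 pairs, 30 over 0.1, against -0.124 over 116 other pairs), so the numbers were taken as embryos.

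The members and lists were chosen with earlier results of these data known. Named genes are all members, Hoxa2, up to 4 genes of each list with the largest called difference in the contrast described, and the 3 genes most like each member among those with a mean of at least 5 CPM and a symbol other than a Gm number or Rik name. Ski, the marker genes named with values and list genes named because a call was lost are exceptions to it, picked once their values were known. The values of 1 gene of the bone lineage list are not reported here; the counts for that list include it.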

Additional observations from a re-analysis of the deposited data

Results flagged for a closer look

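In 7 of 84 sets of 4 or 5 libraries that were tested, 1 per gene and group, 1 library stood away from the others by Dixon's criterion, which by chance picks about 1 in 20. Of these, 5 were in PA1 of E9.5 with the Hoxa2-/- label, in 3 embryos. Replicate 3 of that group had 67.2 CPM of Sox9, where the others had 116.3 to 124.2, and 19.0 CPM of Sox6, where the group's median was 8.78. This library also had the most epithelium markers (1315.1 CPM, others 619.1 to 838.5), the most endothelium markers (395.8, others 150.9 to 285.1) and the least crest mesenchyme markers (416.1 CPM, others 477.7 to 630.0), whose part in these values was not tested. Replicate 2 had 15.5 CPM of Sox5 against a median of 24.3, and 0.316 CPM of Runx3, which is 4 reads. Replicate 4 had 0.522 CPM of Runx2, which is 8 reads. In wildtype, Sox5 stood at 37.3 CPM in PA1 E10.0 replicate 1, where the median was 26.5, and Cbfb at 123.8 CPM in PA2 E9.5 replicate 2, where the median was 99.7.

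Sox9 changed differently in the 2 arches between E9.0 and E10.5, by 2.12 in wildtype (limma adjusted p = 5.34e-07) and 1.52 with the Hoxa2-/- label (0.000585). This comparison was added after the levels were seen.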

How the results depend on the processing

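Runx2 was counted with the members here, although its calls are descriptions. Of the 33 called differences, none changed direction in any value from the 9 other settings or the 68 fits leaving out 1 library. Those that lost their call are named with the results. The number of members called between labels went from 3 to 0 with a pseudocount of 0.25 and ran from 1 to 3 when 1 library was left out. The added comparison of stage changes called 2, and 4 with a pseudocount of 5 or with the embryo as a replicate block. The label difference of Runx2 in PA2 at E10.5 became -1.17 with a pseudocount of 0.25, -1.70 in edgeR and -0.53 without the yolk sac libraries, and its call was lost in each. It ran from -0.73 to -0.39 over the 5 fits that left out 1 library and gave a value. Without wildtype PA2 replicate 2, its highest library, Runx2 failed the filter and had no value. A filter of 5 CPM left no value for Runx2. With 1 library left out, members called ran from 12 to 14 between arches, 13 to 16 between stages, 0 to 0 in the difference of label effects and 2 to 2 in the added comparison. The paired fit changed no other call than those given with the results. The cause of these shifts was not tested. Runx2 and Runx3 are limited by depth, with 22 and 31 libraries at 3 reads or fewer. Counts of PCR reads cover counting error only.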
